A study of Rattus norvegicus with 64 samples.

Results

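The genes examined were the 6 subunits of the N-methyl-D-aspartate (NMDA) receptor named Grin1, Grin2a, Grin2b, Grin2c, Grin2d and Grin3a. They were picked by gene symbol alone out of the 17260 genes in the count files, and all 6 were among the 12521 genes that passed the filter on low counts. The NMDA receptor is a glutamate-gated channel that lets calcium into the neuron. It opens when glutamate and a co-agonist, glycine or D-serine, are bound while the membrane is depolarised, so it reports that sender and receiver were active together. Every receptor contains GluN1, encoded by Grin1, which binds the co-agonist. It assembles with GluN2 subunits, encoded by Grin2a to Grin2d, which bind glutamate and set how long the channel stays open and how strongly magnesium blocks it, or with GluN3 subunits such as the product of Grin3a, which lower calcium entry. In the forebrain of newborn rodents GluN2B prevails, and GluN2A is added as synapses mature, a change known as the Grin2b to Grin2a switch.

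RNA was measured in Long Evans rats that had received no treatment and for which the labels give no genotype. Tissue came from the medial (MEC) and lateral (LEC) entorhinal cortex, and each was hand-dissected under a microscope into layer II (LII) and layers III to VI together (LDeep), at P2, P9, P23 and P45 (postnatal days). In each of the 16 groups of region, layer and age n was 5 (P2), 4 (P9), 3 (P23) or 4 (P45), for a total of 64 samples. The study calls the samples of a group biological replicates. For its microRNA samples it says that a number marks LII and LDeep of 1 animal, and whether this holds for the samples used here is not given in the labels. For contrasts other than those of age, a fit with the replicate number as a block is therefore given beside each result whose call it changes. A number lies within 1 age, so the contrasts of age had no such fit. With counts summed over same-numbered samples, 30 of 30 subunit values of age kept their side of the threshold. In limma voom with the number as a correlation 124 of 126 did. The depth of a library was 3894334 to 11439143 counted pairs, with a median of 7569157.5. Levels are given as log2 CPM, which are edgeR's counts relative to the TMM-adjusted library total, with a prior count of 2. Where subunit genes are compared with each other, levels are TMM-adjusted CPM per kilobase of exon (CPM/kb), without a prior count. The CPM of marker genes and their sums are relative to the plain library total, without TMM. Differences are log2 fold changes (LFC) with their standard error (SE), from edgeR's quasi-likelihood test with Benjamini-Hochberg adjustment over the 12521 genes, and a gene was called at an adjusted p below 0.05. Since each sample was a piece of tissue with all its cell types, fewer cells of a type and less RNA per cell cannot be told apart.

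A few libraries stood apart by marker genes chosen after their values were seen. In MEC LII P2 replicate 1 the excitatory neuron markers Slc17a7, Neurod6, Neurod2 and Tbr1 summed to 3.05 CPM, against 487 to 2295 CPM in the other libraries, while Gad1, an enzyme of GABA synthesis, reached 710 CPM. That library therefore did not show the defining markers of cortical tissue, and it also held 709 CPM of cerebellar markers (Gabra6, Cbln3, Pcp2, Zic1 and Zic4), nearly all from Zic1 and Zic4. MEC LII P2 replicate 3 held 1080 CPM of dopamine neuron markers (Th, Slc6a3, Slc18a2 and Pitx3). Cerebellar markers summed to 352 CPM in MEC LII P23 replicate 2, 309 CPM in LEC LII P45 replicate 2, 427 CPM in LEC LDeep P45 replicate 2 and 74.5 CPM in MEC LDeep P45 replicate 2, against at most 35.4 CPM in the remaining libraries. Results that rest on these 6 libraries are given with and without them, except where a value without them is said not to be given. In the libraries kept, the dopamine neuron markers had a median sum of 2.68 CPM and reached 103 CPM, in LEC LDeep P2 replicate 3. MEC LDeep P2 replicate 4 and LEC LDeep P45 replicate 4 differed in another way, since their counts rose most with gene length, by 0.21 and 0.18 log2 units per doubling. In both, all 6 subunit genes lay above the mean of their group. This also held in libraries with little slope, such as MEC LII P9 replicate 2 and MEC LDeep P45 replicate 4 (each 0.023).

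On the rat genome build rn6 the 6 genes lie on 5 chromosomes and differ greatly in size. Grin1 spans chr3:2507745-2534663 on the minus strand with 21 exons and 4343 exon bases. Grin2a spans chr10:5707806-6119897 on the plus strand with 14 exons and 4717 exon bases, and Grin2b spans chr4:169559949-169998448 on the minus strand with 13 exons and 5259 exon bases. These 2 genes occupy 412092 and 438500 bases of the genome, most of it intron. Grin2c is compact, at chr10:103798411-103816016 on the minus strand with 14 exons and 4388 exon bases. Grin2d lies at chr1:101820461-101856881 on the minus strand with 13 exons and 5253 exon bases, and Grin3a at chr5:64928620-65073012 on the minus strand with 8 exons and 3217 exon bases. The exons of Grin1 share 8 bases with Lrrc26 on the opposite strand, and the counts were strand-specific. Sbk1 overlaps Grin2d and Ppp3r2 lies within Grin3a on the same strand, without shared exon bases.

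Sequences around the transcription start were at hand for 4 of the 6 genes, from RefSeq with build GRCr8, as 250 bases before the start and 50 after it. Those of Grin1, Grin2c and Grin3a are printed as the subunit common to all receptors, the subunit with the greatest rise, and the subunit that differed between layers in both regions. Capitals mark matches to the motifs searched. Grin1 is from chr3:28528705-28529004, Grin2c from chr10:101005089-101005388 and Grin3a from chr5:69001509-69001808, all on the minus strand and written 5′ to 3′.
Grin1: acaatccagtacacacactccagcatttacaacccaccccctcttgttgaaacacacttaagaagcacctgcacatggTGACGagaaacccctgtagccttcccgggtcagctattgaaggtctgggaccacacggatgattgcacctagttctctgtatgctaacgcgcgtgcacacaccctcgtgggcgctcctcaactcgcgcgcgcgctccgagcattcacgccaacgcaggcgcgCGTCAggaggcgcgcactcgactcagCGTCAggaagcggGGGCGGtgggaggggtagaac
Grin2c: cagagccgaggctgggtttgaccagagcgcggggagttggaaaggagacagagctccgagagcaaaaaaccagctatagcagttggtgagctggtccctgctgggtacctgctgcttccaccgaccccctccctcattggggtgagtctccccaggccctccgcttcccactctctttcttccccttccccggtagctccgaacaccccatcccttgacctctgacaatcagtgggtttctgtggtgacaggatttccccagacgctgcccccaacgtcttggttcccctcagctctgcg
Grin3a: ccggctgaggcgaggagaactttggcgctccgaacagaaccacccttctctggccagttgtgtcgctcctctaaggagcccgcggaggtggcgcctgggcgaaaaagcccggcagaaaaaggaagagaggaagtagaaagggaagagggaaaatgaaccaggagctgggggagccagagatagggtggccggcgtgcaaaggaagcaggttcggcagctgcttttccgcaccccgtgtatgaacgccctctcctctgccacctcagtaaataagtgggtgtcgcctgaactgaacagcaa

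The motifs searched on both strands were GGGCGG, the core of the Sp1 box, TGACG, found within a cAMP response element, and CAGCACC and GGACAGC, the left and right parts of the RE1 element bound by the repressor REST. Of the 4 windows, the Grin1 window alone held a match: GGGCGG at 29 bases after the start, and TGACG at 172 and 10 bases before the start and 16 bases after it, the last pair read as CGTCA. Among 33469 rat promoters of the same length 33.1% held GGGCGG, 21.2% held TGACG, 6.78% held CAGCACC and 6.59% held GGACAGC. The windows of Grin2c, Grin2d and Grin3a did not hold these letters, which says nothing of the factors themselves.

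The first question was how the subunits changed from P2 to P45. Grin2c, Grin2a and Grin1 rose, Grin2d and Grin3a fell, and Grin2b was not called. Thus 5 of the 6 subunits were called from P2 to P45, in a comparison where 81% of all genes tested were called (41.1% higher and 39.9% lower at P45). Grin2c had the greatest rise, with an LFC of 6.14 (SE 0.24, adjusted p = 4.4e-29), and Grin2a followed with 2.64 (SE 0.17, adjusted p = 5.7e-20). From P23 to P45 edgeR called 0 of the 6, also at an unadjusted p below 0.05, as did DESeq2 and limma voom, where 3.83% of all genes were called. Their adjusted p ranged from 0.76 to 1.0.

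Per kilobase, the order of the subunits was different at each end of the series. At P2 Grin2b stood at 69.5 CPM/kb ± 26.1 (SD, n = 20), Grin1 at 46.5 ± 14.1, Grin3a at 21.6 ± 10.7, Grin2d at 6.65 ± 3.54, Grin2a at 6.46 ± 2.81 and Grin2c at 0.459 ± 0.666 CPM/kb. The ranges of mean ± SD overlapped for Grin2b and Grin1 and for Grin2d and Grin2a, and the other neighbours in that order did not overlap. At P9 Grin1 stood at 66.8 CPM/kb ± 13.3 (n = 16), Grin2b at 56.1 ± 16.4, Grin3a at 17.7 ± 7.52, Grin2a at 11.9 ± 5.65, Grin2c at 9.97 ± 5.18 and Grin2d at 4.26 ± 1.34 CPM/kb, and Grin2b and Grin3a were the only neighbours without overlap. At P23 the values were 121 CPM/kb ± 21.6 (n = 12) for Grin1, 71.5 ± 18.9 for Grin2b, 41.4 ± 17.2 for Grin2a, 28.2 ± 8.02 for Grin2c, 6.60 ± 3.99 for Grin3a and 1.41 ± 0.459 CPM/kb for Grin2d. At P45 the order was the same, with Grin1 at 115 CPM/kb ± 31.8 (n = 16), Grin2b at 69.5 ± 35.9, Grin2a at 39.5 ± 15.4, Grin2c at 27.5 ± 6.17, Grin3a at 5.59 ± 2.80 and Grin2d at 1.60 ± 1.15 CPM/kb. Grin2a and Grin2c thus passed Grin3a and Grin2d in mean level, and Grin2b and Grin2a overlapped at P23 and P45 though not at P2.

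**Figure D1:**
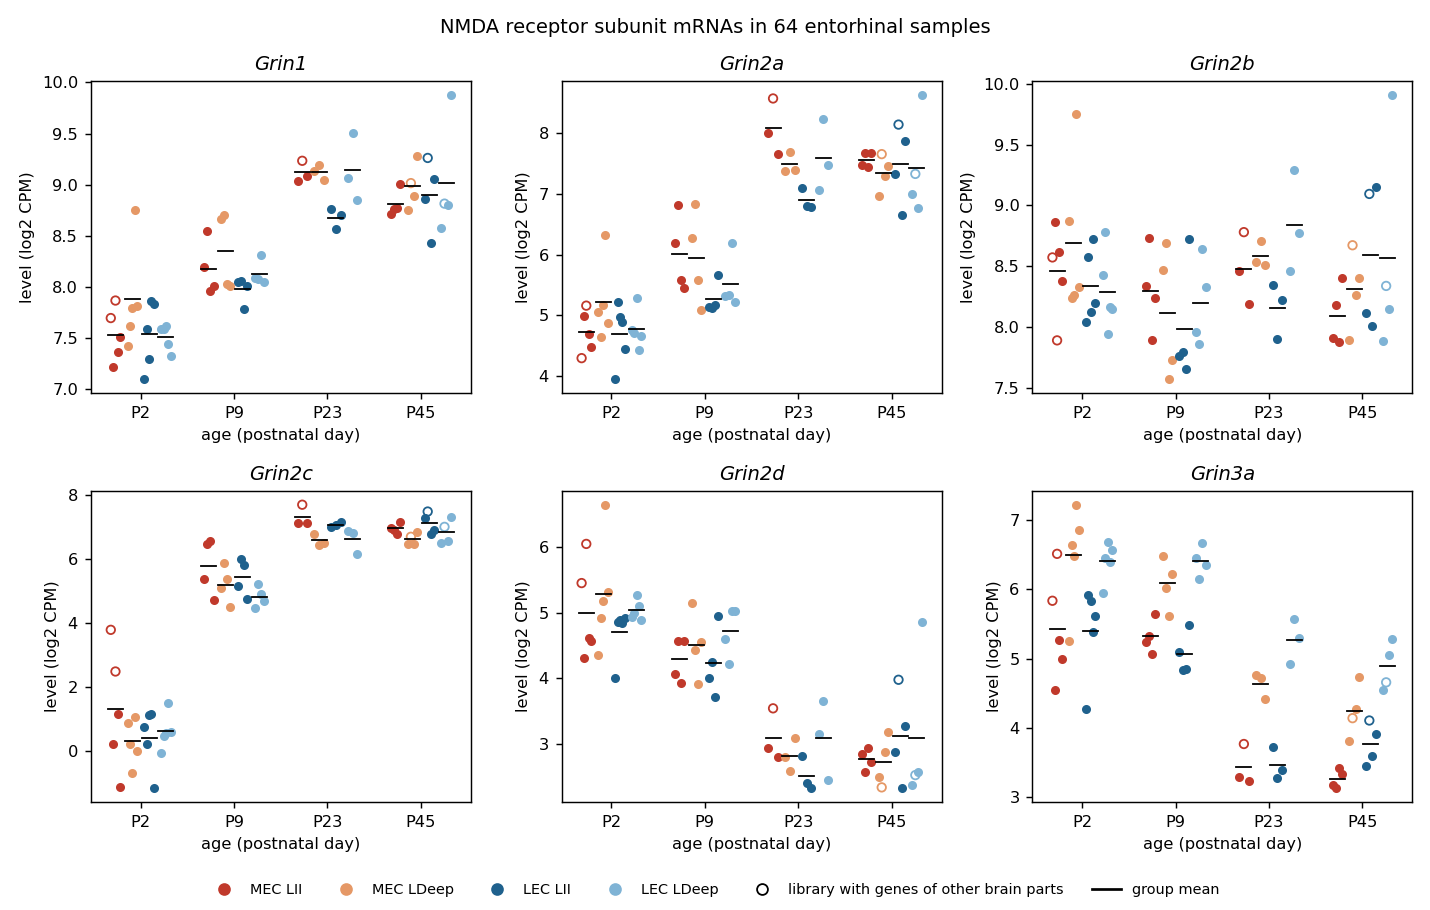
Level of each of the 6 subunit genes in log2 CPM (vertical axis) by age (horizontal axis), 1 panel per gene. Each point is 1 sample, coloured by region and layer, bars are group means, and open circles mark the 6 libraries with genes of other brain parts; Grin2c climbs from a median of 0.57 at P2 to 6.88 at P45 while Grin2b stays between 7.57 and 9.91 in every sample.

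Grin1, the obligatory subunit, ranged from 7.10 to 8.75 log2 CPM at P2 (median 7.59, n = 20), from 7.79 to 8.70 at P9 (median 8.05, n = 16), from 8.56 to 9.50 at P23 (median 9.06, n = 12) and from 8.43 to 9.87 at P45 (median 8.84, n = 16). It rose in a pair of steps, by an LFC of 0.53 from P2 to P9 (SE 0.10, adjusted p = 1.2e-05) and of 0.85 from P9 to P23 (SE 0.11, adjusted p = 5.0e-09). Over the whole span its LFC was 1.32 (SE 0.10, adjusted p = 2.3e-17), with 1.27 in MEC LII, 1.04 in MEC LDeep, 1.36 in LEC LII and 1.60 in LEC LDeep. All samples at P23 lay above all samples at P9 within each of the 4 region and layer groups. From P2 to P45 the samples were separate in 3 of the 4, and in MEC LDeep they overlapped through replicate 4 of P2, which stood at 8.75 against 7.43 to 7.81 in the other samples of its group.

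Grin2a encodes the subunit with which the mature receptor gains faster decay. Its samples ranged from 3.96 to 6.33 log2 CPM at P2 (median 4.82), from 5.09 to 6.84 at P9 (median 5.51), from 6.78 to 8.57 at P23 (median 7.43) and from 6.65 to 8.62 at P45 (median 7.45). The LFC was 0.86 from P2 to P9 (SE 0.17, adjusted p = 2.1e-05) and 1.79 from P9 to P23 (SE 0.19, adjusted p = 6.1e-12), so the greater part of its rise fell in the later step. In MEC LII the P2 samples read 4.30, 5.00, 5.16, 4.69 and 4.48 log2 CPM, the P9 samples 6.19, 6.82, 5.59 and 5.45, the P23 samples 8.01, 8.57 and 7.65 and the P45 samples 7.48, 7.67, 7.45 and 7.67. In LEC LII the P2 samples read 3.96, 5.22, 4.98, 4.90 and 4.45 log2 CPM, the P9 samples 5.14, 5.12, 5.18 and 5.66, the P23 samples 7.10, 6.80 and 6.78 and the P45 samples 7.33, 8.14, 6.65 and 7.87. In each of the 4 region and layer groups, P23 samples were above all P9 samples and P45 samples above all P2 samples. The LFC from P2 to P45 was 2.82 in MEC LII, 2.04 in MEC LDeep, 2.86 in LEC LII and 2.83 in LEC LDeep, each of them called.

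Grin2b, the GluN2 subunit that prevails at birth, was the subunit with no call at any step. It ranged from 7.89 to 9.75 log2 CPM at P2 (median 8.35), from 7.57 to 8.73 at P9 (median 8.10), from 7.90 to 9.29 at P23 (median 8.49) and from 7.87 to 9.91 at P45 (median 8.22), and the ages overlapped in every region and layer. The LFC was -0.30 from P2 to P9 (SE 0.15, adjusted p = 0.088), 0.33 from P9 to P23 (SE 0.17, adjusted p = 0.090) and -0.01 from P2 to P45 (SE 0.15, adjusted p = 0.94). By region it was -0.39 in MEC LII, -0.49 in MEC LDeep, 0.33 in LEC LII and 0.49 in LEC LDeep from P2 to P45, none of them called. Of all 6 genes Grin2b followed the slope of counts on gene length most closely. Across the 64 libraries, whose depth was not equal, the deviations of Grin2b from its group means correlated with that slope with a Pearson r of 0.88. The value was 0.72 for Grin2a, 0.69 for Grin1, 0.60 for Grin2d, 0.34 for Grin3a and 0.26 for Grin2c. With the slope as a covariate, an alternative added after the data had been seen, the fall of Grin2b from P2 to P9 and its rise from P9 to P23 were called at nearly the same size (LFC -0.30 and 0.37). Under scaling to pan-neuronal markers, which shifted the median LFC of all genes by 0.37, the LFC from P2 to P45 was 0.34 (adjusted p = 0.030). Of the 9 markers used for that scaling 6 rose and 2 fell over these ages (median LFC 1.60), beside 41.1% of all genes higher and 39.9% lower.

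Grin2c encodes a subunit with weak magnesium block, which is abundant in cerebellar granule cells and is also found in cortical astrocytes. At P2 it was close to the limit of detection, with 1 to 135 counts per sample (median 8) and -1.18 to 3.78 log2 CPM (median 0.57). At P9 it had 130 to 855 counts and 4.45 to 6.57 log2 CPM (median 5.18), at P23 507 to 1498 counts and 6.16 to 7.70 log2 CPM (median 6.94), and at P45 619 to 1348 counts and 6.46 to 7.49 log2 CPM (median 6.88). The steps had an LFC of 4.63 from P2 to P9 (SE 0.25, adjusted p = 3.3e-22) and 1.52 from P9 to P23 (SE 0.20, adjusted p = 4.2e-09), and each age lay above the one before it in all 4 region and layer groups up to P23. In MEC LII the P2 samples stood at 3.78, 0.21, 2.48, 1.15 and -1.14 log2 CPM, and the highest values belonged to replicates 1 and 3, which are among the 6 libraries with genes of other brain parts. Without these 6 libraries the mean level at P2 was 0.37 log2 CPM and the LFC was 5.22 from P2 to P9 and 6.67 from P2 to P45. Astrocyte markers moved over the same ages. Of 8 astrocyte markers 7 rose from P2 to P45 and 1 fell, their summed level ran from 811 to 2483 CPM at P2 (median 1280), 1296 to 4944 at P9 (median 2451), 3945 to 6881 at P23 (median 5457) and 3967 to 7498 at P45 (median 5705), and none was at 0 in any sample. Their part in the rise of Grin2c was not tested.

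Grin2d, a GluN2 subunit of slow decay that is best known from interneurons and from early development, fell. It ranged from 4.00 to 6.65 log2 CPM at P2 (median 4.92), from 3.71 to 5.15 at P9 (median 4.49), from 2.32 to 3.65 at P23 (median 2.81) and from 2.33 to 4.86 at P45 (median 2.79). The LFC was -0.63 from P2 to P9 (SE 0.19, adjusted p = 0.0031), -1.60 from P9 to P23 (SE 0.24, adjusted p = 5.3e-08) and -2.10 from P2 to P45 (SE 0.21, adjusted p = 2.0e-13). Every P23 sample lay below every P9 sample within its region and layer, and every P45 sample below every P2 sample. The highest value at P45, 4.86 in LEC LDeep replicate 4, was one of the steep libraries named above, and the other samples of its group stood between 2.38 and 2.58. Of the interneuron markers Gad1, Gad2, Slc32a1, Pvalb, Sst, Vip, Lhx6 and Npy 4 of the 8 rose and 1, Lhx6, fell from P2 to P45 (LFC of Lhx6 -1.95), where 41.1% of all genes were higher and 39.9% lower. Their median summed level was 474 CPM at P2 and 727 CPM at P45, and Pvalb was at 0 in 11 samples and Npy in 4. Their part in the fall of Grin2d was not tested.

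Grin3a, whose product is known for holding back the maturation of young synapses, fell in the step from P9 to P23. It ranged from 4.27 to 7.22 log2 CPM at P2 (median 5.93), from 4.83 to 6.67 at P9 (median 5.63), from 3.23 to 5.58 at P23 (median 4.09) and from 3.13 to 5.28 at P45 (median 4.01). The LFC was -1.54 from P9 to P23 (SE 0.17, adjusted p = 2.0e-11) and -2.0 from P2 to P45 (SE 0.15, adjusted p = 1.2e-17), while that from P2 to P9 was -0.30 (SE 0.14, adjusted p = 0.051) and was called under several alternatives. As for Grin2d, P9 and P23 samples did not overlap in any region and layer, nor did P2 and P45 samples. Within the groups the LFC from P2 to P45 was -2.37 in MEC LII, -2.36 in MEC LDeep, -1.72 in LEC LII and -1.53 in LEC LDeep, and that of Grin2d was -2.43, -2.79, -1.53 and -1.65. All 8 were called, where 65.9%, 66.9%, 60.8% and 62.8% of all genes were called in these 4 groups. The P2 samples of MEC LII include replicates 1 and 3, which are among the 6 libraries with genes of other brain parts. These stood at 5.45 and 6.05 log2 CPM for Grin2d (others 4.31 to 4.62) and at 5.83 and 6.51 for Grin3a (others 4.55 to 5.27). The falls in MEC LII without the 6 libraries are not given here. Counted by step, 4 of the 6 subunits were called from P2 to P9 (63.3% of all genes) and 5 from P9 to P23 (64.6% of all genes), which is close to the background in a tissue where most genes changed with age.

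The next question was the balance of GluN2 subunits within a sample, which does not depend on the scaling between libraries. It was measured as the ratio of Grin2b to Grin2a per kilobase of exon, and it is described without a test because both genes enter it. The ratio was 11.4 ± 3.12 at P2 (SD, n = 20), 5.13 ± 1.34 at P9 (n = 16), 1.86 ± 0.448 at P23 (n = 12) and 1.75 ± 0.362 at P45 (n = 16). Its range was 5.70 to 17.6 at P2, 3.25 to 7.75 at P9, 1.04 to 2.44 at P23 and 1.20 to 2.34 at P45, so samples of P23 and P45 lay apart from those of P2 and P9, and Grin2b stayed above Grin2a in every sample. Grin2a rose, with mean levels of 4.85 log2 CPM at P2, 5.69 at P9 and 7.46 at P45. Grin2b had no call, at 8.45, 8.15 and 8.39, and its lower mean at P9 also entered the drop from P2 to P9. Without the 6 libraries the mean ratio was 11.3 at P2, 1.93 at P23 and 1.74 at P45. The P2 value still included replicate 3 of MEC LDeep, LEC LII and LEC LDeep, each the lowest of its group.

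**Figure D2:**
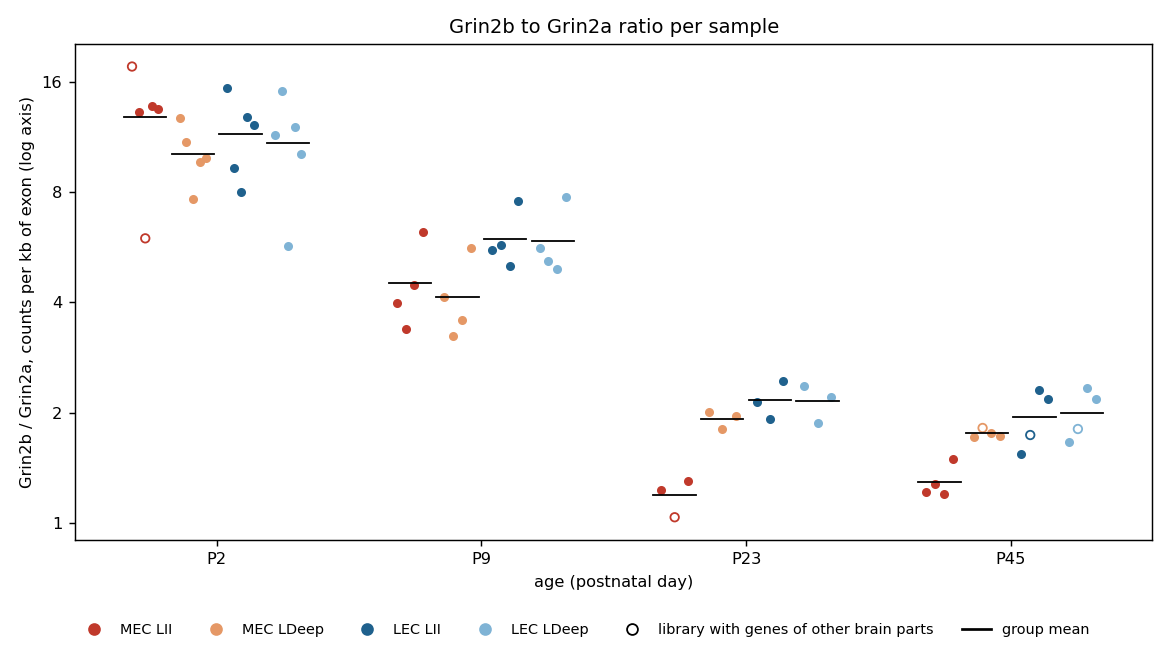
Ratio of Grin2b to Grin2a counts per kilobase of exon (vertical axis, log scale) by age (horizontal axis). Each point is 1 sample, coloured by region and layer, with open circles for the 6 libraries with genes of other brain parts; the ratio falls from a mean of 11.4 at P2 to 1.75 at P45, and the MEC LII samples are the lowest at P23 and P45.

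MEC LII stood apart in this ratio at the later ages. Its samples had ratios of 1.23, 1.04 and 1.30 at P23 and of 1.21, 1.28, 1.20 and 1.49 at P45. The samples of MEC LDeep, LEC LII and LEC LDeep had ratios of 1.81 to 2.44 at P23 and of 1.55 to 2.34 at P45, so each MEC LII sample lay below every sample of the other 3 groups at both ages. At P2 and P9 MEC LII overlapped the rest, with 17.6, 13.2, 5.98, 13.8 and 13.5 at P2 and 3.97, 3.38, 4.46 and 6.23 at P9. Without the 6 libraries the MEC LII samples of P23 had ratios of 1.23 and 1.30, still below the others, and those of P45 were unaffected. This pattern was noticed in these samples and was not tested.

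Among the summed GluN2 genes per kilobase, Grin2b made up 83.4% ± 5.12 at P2 and 68.2% ± 5.87 at P9, then 50.4% ± 6.52 at P23 and 49.1% ± 5.55 at P45 (SD). Grin2a went from 7.87% ± 2.07 at P2 to 14.0% ± 3.09 at P9, 28.2% ± 5.21 at P23 and 28.7% ± 3.36 at P45. The share of Grin2c was 0.577% ± 0.792 at P2 and 12.5% ± 6.24 at P9, then 20.4% ± 6.10 at P23 and 21.1% ± 4.32 at P45, and its mean at P2 was 0.345% without the 6 libraries. Grin2d held 8.17% ± 3.33 at P2 and 5.32% ± 1.47 at P9, but 0.985% ± 0.183 at P23 and 1.10% ± 0.274 at P45. At the older ages Grin2c was thus ahead of Grin2d, which it trailed at P2. The shares were not adjusted for the slope of counts on gene length. In the steep library LEC LDeep P45 replicate 4 Grin2c held 11.8% and Grin2b 59.3%, against 21.7% to 23.3% and 48.1% to 54.1% in the other samples of its group. In the other steep library, MEC LDeep P2 replicate 4, Grin2b held 81.8%, within its group's range of 80.1% to 88.8%. The share of Grin2a in MEC LII was 32.4% to 37.7% at P23 and 30.5% to 34.2% at P45, above the range of the other groups (20.5% to 30.4% and 22.1% to 29.5%). Grin1 per summed GluN2 was 0.579 ± 0.123 at P2 and 0.840 ± 0.145 at P9, then 0.863 ± 0.106 at P23 and 0.868 ± 0.132 at P45, on the same scale per kilobase.

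**Figure D3:**
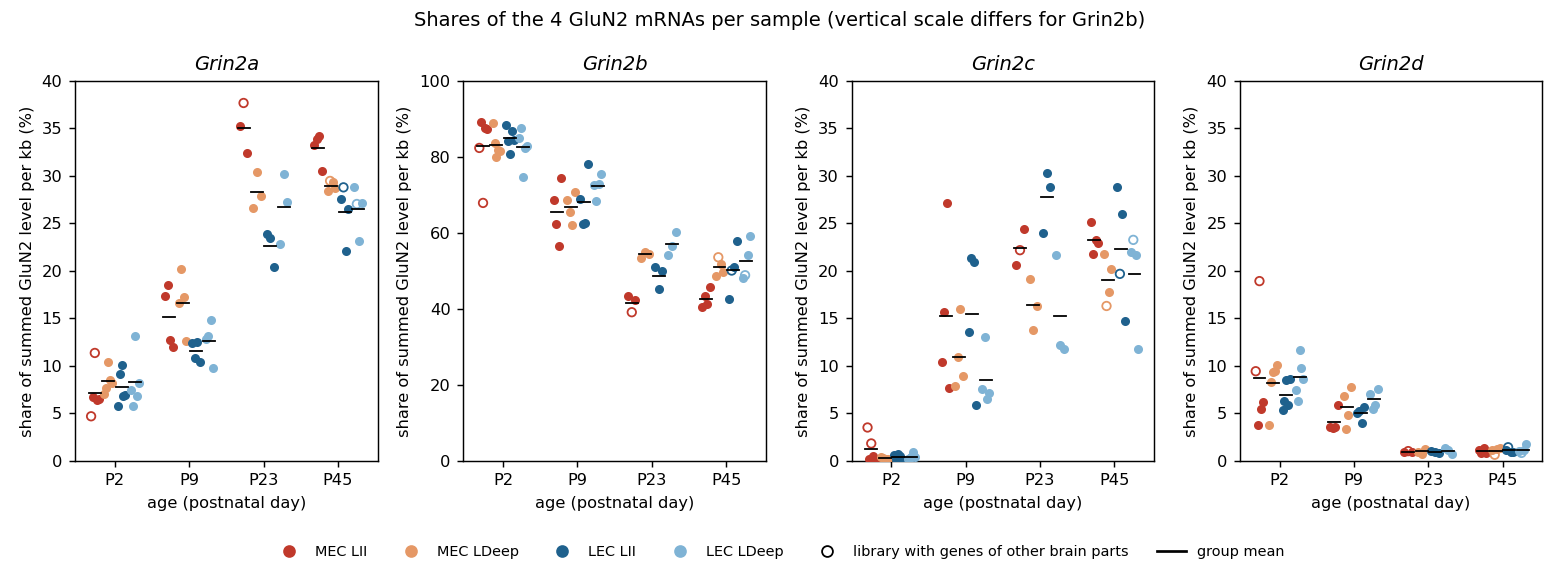
Share of each GluN2 gene in the summed counts per kilobase of Grin2a, Grin2b, Grin2c and Grin2d (vertical axis, percent; 0 to 100 for Grin2b and 0 to 40 for the others) by age (horizontal axis). Each point is 1 sample, coloured by region and layer; mean shares of Grin2b go from 83.4% at P2 to 49.1% at P45, while those of Grin2a reach 28.7% and those of Grin2c 21.1%.

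The comparison of layers asked how LII differed from LDeep. Grin3a was the subunit with a layer difference in both regions, lower in LII by an LFC of -1.16 over all ages (SE 0.11, adjusted p = 5.0e-13). Grin2c was higher in LII by 0.67 (SE 0.17, adjusted p = 0.0010) and Grin1 was lower by -0.19 (SE 0.08, adjusted p = 0.030), and both of these calls depended on the libraries used. Thus 3 of the 6 subunits were called between layers, where 54% of all genes were called (23.5% higher and 30.5% lower in LII). The LFC of Grin2a was -0.10 (SE 0.13, adjusted p = 0.51), that of Grin2b -0.19 (SE 0.12, adjusted p = 0.18) and that of Grin2d -0.23 (SE 0.15, adjusted p = 0.20).

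In the LEC the samples of Grin3a in LII and LDeep were separate at all 4 ages. At P2 LEC LII stood at 4.27, 5.91, 5.83, 5.38 and 5.61 log2 CPM and LEC LDeep at 5.94, 6.46, 6.69, 6.39 and 6.57. At P9 the layers stood at 5.09, 4.83, 4.85 and 5.48 against 6.45, 6.14, 6.67 and 6.35, and at P23 at 3.72, 3.27 and 3.39 against 4.92, 5.58 and 5.30. At P45 LEC LII read 3.44, 4.10, 3.59 and 3.91 and LEC LDeep 4.55, 4.66, 5.05 and 5.28. The LFC was -0.94 at P2 (adjusted p = 0.010), -1.34 at P9 (adjusted p = 7.4e-04), -1.84 at P23 (adjusted p = 5.1e-04) and -1.13 at P45 (adjusted p = 0.011), where 12%, 15.5%, 11.2% and 13.2% of all genes were called. Over all ages Grin3a had an LFC of -1.31 in the LEC (SE 0.16, adjusted p = 1.1e-09) and -1.01 in the MEC (SE 0.16, adjusted p = 5.5e-07), where 38.6% and 40.8% of all genes were called.

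In the MEC the layers of Grin3a were separate at P23 and P45 and overlapped at P2 and P9. At P2 MEC LII stood at 5.83, 4.55, 6.51, 5.27 and 4.99 log2 CPM and MEC LDeep at 5.26, 6.63, 6.48, 7.22 and 6.86. At P23 the values were 3.29, 3.76 and 3.23 against 4.76, 4.71 and 4.41, and at P45 3.17, 3.13, 3.42 and 3.34 against 3.81, 4.14, 4.27 and 4.73. The higher MEC LII values at P2 were those of replicates 1 and 3, which carry genes of other brain parts, and without the 6 libraries the LFC at P2 was -1.65 in place of -1.01 (adjusted p = 0.0083). It was -0.79 at P9 (adjusted p = 0.051; -0.77 and 0.034 with the replicate block), -1.21 at P23 (adjusted p = 0.017) and -1.02 at P45 (adjusted p = 0.023), where 17.7%, 16.5% and 14.7% of all genes were called, and 9.14% at P2. The call at P2 was lost without replicate 2, 4 or 5 of P2, that at P23 without any 1 of its replicates, and that at P45 likewise, while the call over all ages held in each alternative run (LFC -1.29 to -0.98). Deep-layer markers differed along with Grin3a: all 7 (Tle4, Foxp2, Bcl11b, Fezf2, Etv1, Ctgf and Nxph3) were lower in LII, at a sum of 173 to 592 CPM (median 287) against 505 to 1131 CPM in LDeep (median 694), and none was at 0 in any sample. Of the 8 interneuron markers 3 were lower in LII and 1 was higher, where 30.5% of all genes were lower and 23.5% higher. Their median sum was 547 CPM in LII and 650 CPM in LDeep. Their part in the layer difference of Grin3a was not tested.

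**Figure D4:**
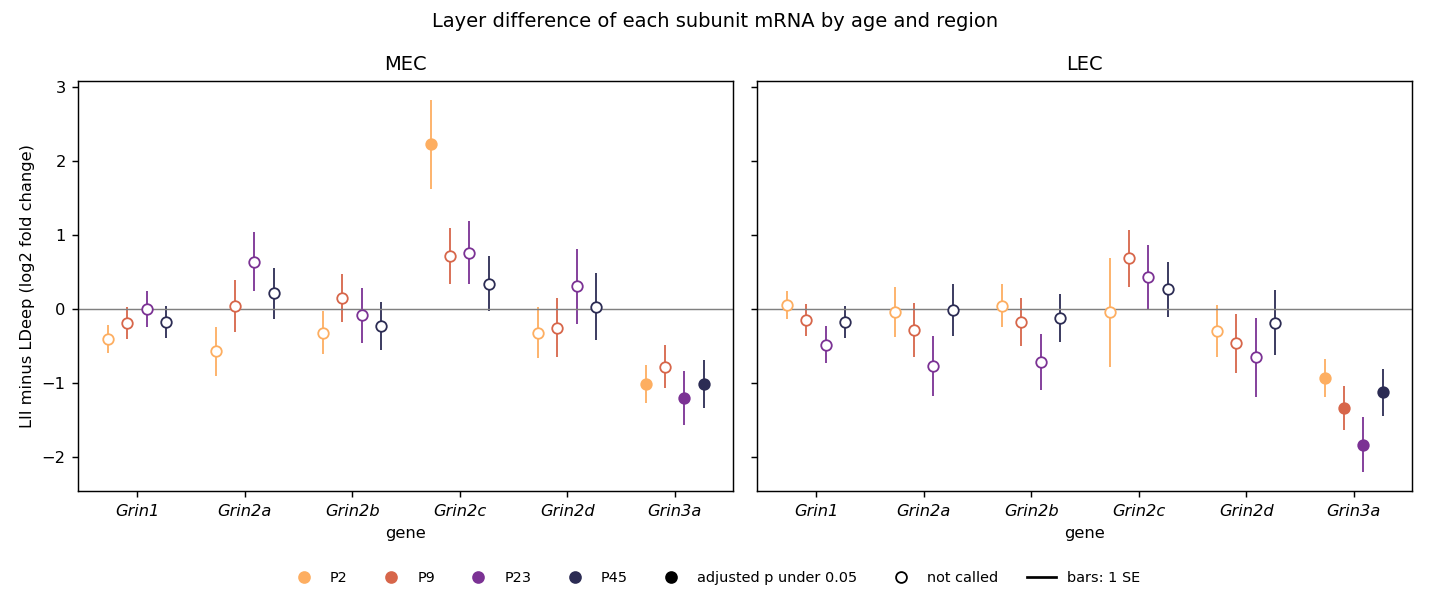
Layer difference of the 6 subunit genes, as LFC of LII minus LDeep with ±1 SE (vertical axis), by gene (horizontal axis), in 1 panel per region and 1 colour per age. Filled points were called at an adjusted p below 0.05; Grin3a lies below 0 at every age in both regions, from -0.79 to -1.84, and Grin2c in the MEC at P2 is the positive call, which was lost without the 6 libraries that stood apart (LFC -0.13).

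The layer difference of Grin2c was greatest in the MEC at P2, with an LFC of 2.22 (SE 0.60, adjusted p = 0.013). It rested on the libraries that stood apart: without MEC LII P2 replicate 1 it was 1.16 (adjusted p = 0.28), and without the 6 libraries -0.13 (adjusted p = 0.94). Without these 6 the difference over both regions and all ages was 0.34 (adjusted p = 0.070), and that in the MEC 0.37 (adjusted p = 0.23) in place of 1.01. At P23 Grin2c was above in LII in every sample of both regions, with 7.13, 7.70 and 7.14 log2 CPM in MEC LII against 6.79, 6.45 and 6.52 in MEC LDeep, and 7.0, 7.06 and 7.17 in LEC LII against 6.88, 6.81 and 6.16 in LEC LDeep. Neither contrast at P23 was called (LFC 0.76 and 0.43, adjusted p = 0.26 and 0.59). Of the 8 astrocyte markers 7 were higher in LII, at a sum of 1190 to 7498 CPM (median 3670) against 811 to 5115 CPM (median 1953), and of the 8 meningeal fibroblast markers 7 were higher, at a median sum of 967 CPM against 128 CPM. Their part in the levels of Grin2c was not tested.

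The difference of Grin1 was small and its call was lost when P2 replicate 2 (LFC -0.16, adjusted p = 0.093), P9 replicate 1 (-0.15, 0.12), 2 (-0.17, 0.077) or 3 (-0.18, 0.054), or P23 replicate 2 (-0.17, 0.077) was left out, each number standing for its 4 samples. Scaled to pan-neuronal markers it was -0.016 (adjusted p = 0.88). Of those 9 markers 6 were themselves lower in LII and 0 higher, beside 30.5% of all genes lower and 23.5% higher. All 3 samples of LEC LII at P23 were below those of LEC LDeep for Grin1 (8.77, 8.56 and 8.71 against 9.07, 9.50 and 8.85 log2 CPM) and for Grin2b (8.35, 7.90 and 8.22 against 8.46, 9.29 and 8.77 log2 CPM), and neither gene was called there. Grin2d gained a call without the 6 libraries, with an LFC of -0.43 (adjusted p = 0.014).

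The comparison of MEC with LEC asked whether the subunits differ between regions of the entorhinal cortex, and edgeR called 0 of the 6, where 15.3% of all genes were called. At an unadjusted p below 0.05 it was 1 of the 6, Grin2a, which was also the 1 gene called by DESeq2 and by limma voom. Grin2a came nearest, with an LFC of 0.33 (SE 0.13, adjusted p = 0.069), with 0.51 in LII (SE 0.18, adjusted p = 0.053) and 0.15 in LDeep (SE 0.18, adjusted p = 0.79), where 12.6% and 5.77% of all genes were called. These values of the layers were not shown to differ, since their difference was 0.36 (SE 0.25, adjusted p = 0.60). With the replicate block Grin2a was called over both layers (LFC 0.33, adjusted p = 0.038) and in LII (0.49, adjusted p = 0.030). Grin2c in LII was called with the block as well (0.54, adjusted p = 0.028, against 0.59 and 0.080 without it), but its LFC there was -0.015 (adjusted p = 0.98) without the 6 libraries. At P23 the values of Grin2a were 8.01, 8.57 and 7.65 log2 CPM in MEC LII and 7.10, 6.80 and 6.78 in LEC LII, so the samples were separate, with an LFC of 1.23 (SE 0.40, adjusted p = 0.10), while at P45 they overlapped, with an LFC of -0.04 (SE 0.34, adjusted p = 0.99). Of all genes 2.19% and 4.51% were called in these contrasts of LII. The 8.57 at P23 belonged to MEC LII replicate 2, one of the 6 libraries with genes of other brain parts. The remaining MEC LII samples, at 7.65 and 8.01, still lay above those of LEC LII. The LFC of Grin2a between regions without the 6 libraries is not given here. The call on Grin2a over both layers went with the method: DESeq2 (0.33, adjusted p = 0.049), voom with quantile normalization (0.33, adjusted p = 0.040), the length slope as a covariate (0.34, adjusted p = 0.0029), leaving out the 2 steep libraries (0.36, adjusted p = 0.019) and leaving out P9 replicate 3 (0.40), P9 replicate 4 (0.38) or P45 replicate 4 (0.41) brought it below the threshold. The LFC of Grin1 was 0.13 (adjusted p = 0.27), of Grin2b -0.02 (adjusted p = 0.95), of Grin2c 0.25 (adjusted p = 0.37), of Grin2d -0.02 (adjusted p = 0.96) and of Grin3a -0.20 (adjusted p = 0.24), the last at -0.30 (adjusted p = 0.046) without the 6 libraries.

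Whether the change with age differed between regions was tested as an interaction, and edgeR, DESeq2 and limma voom each called 0 of the 6, where 5.37% of all genes were called by edgeR. At an unadjusted p below 0.05 edgeR had 3 (Grin2b, Grin2d and Grin3a). The change from P2 to P45 in the MEC minus that in the LEC was -0.85 for Grin2b (SE 0.31, adjusted p = 0.093), -1.02 for Grin2d (SE 0.40, adjusted p = 0.13), -0.74 for Grin3a (SE 0.29, adjusted p = 0.13), -0.90 for Grin2c (SE 0.56, adjusted p = 0.35), -0.41 for Grin2a (SE 0.34, adjusted p = 0.50) and -0.33 for Grin1 (SE 0.20, adjusted p = 0.35). All 6 values were negative. The steep libraries MEC LDeep P2 replicate 4 and LEC LDeep P45 replicate 4 both enter this contrast so that a high level lowers it. There the 6 genes lay above their group means, by 0.73 to 1.36 and by 0.40 to 1.78 log2 units. The 6 values without these libraries are not given here. Grin2b was called with the length slope as a covariate (-0.64, adjusted p = 0.0019) and, with Grin2d and Grin3a, under scaling to pan-neuronal markers. Likewise 0 subunits were called by these tools, or had an unadjusted p below 0.05 in edgeR, for the change with age in LII minus that in LDeep (6.72% of all genes), where the value of Grin2a was 0.40 (SE 0.34, adjusted p = 0.57), nor for the layer difference in the MEC minus that in the LEC (1.24% of all genes, and 287 genes with the replicate block), where the value of Grin3a was 0.30 (SE 0.22, adjusted p = 0.61).

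Around the receptor, 8 lists of genes were followed through the same contrasts, and from P2 to P45 they fell into those that mostly rose and those that did not. All 9 activity-regulated genes rose (median LFC 3.30, against 0.01 over all genes), with Arc, which trims AMPA receptors from synapses, at 4.59 (SE 0.17) and Fosb, a transcription factor of the AP-1 family, at 4.20 (SE 0.26). Of 17 genes for CaMKII, calmodulin and calcineurin, the machinery that reads the calcium entering through the receptor, 15 rose and none fell (median 0.77), led by Camk2n1, an inhibitor of CaMKII, at 3.47 (SE 0.09) and Rasgrf1, a Ras activator, at 2.96 (SE 0.17). Of 15 scaffold genes of the PSD-95 family and its partners, which hold the receptor at the postsynaptic density, 12 rose and 2 fell (median 0.78). Dlg1, which encodes SAP97, reached 2.46 (SE 0.07) and Dlgap1 1.49 (SE 0.05), and Homer3 and Homer2 fell, with an LFC of -0.46 (SE 0.15) and -0.35 (SE 0.09). Of 8 genes for glutamate supply and clearance 7 rose and 1 fell (median 1.03): Slc1a2, the glial glutamate transporter, reached 3.77 (SE 0.18), Slc17a7, which loads glutamate into vesicles, reached 2.26 (SE 0.21), and Slc17a6, its counterpart of early development, fell, with -1.63 (SE 0.16).

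Of 9 tested genes whose products associate with the receptor 6 rose and 1 fell (median 0.99), with Pacsin1, an endocytic partner of GluN3A, at 2.4 (SE 0.10), Nsf, the fusion ATPase, at 2.32 (SE 0.08) and Lin7c at -1.46 (SE 0.08). Grin3b, the other GluN3 gene, did not pass the filter on low counts, and Kif17 was not analysed here. Of 14 genes for glycine and D-serine 6 rose and 6 fell (median 0.13). Psat1, an enzyme of serine synthesis, reached 1.79 (SE 0.08) and Slc7a10, a transporter of D-serine and glycine, 1.00 (SE 0.14), while Shmt1 had -1.07 (SE 0.13) and Slc1a4 -0.96 (SE 0.07). Of 12 kinases and phosphatases that act on the receptor 4 rose and 6 fell (median -0.15). Ptk2b, a calcium-dependent tyrosine kinase, reached 2.26 (SE 0.16), while Fyn, a tyrosine kinase of the Src family, had -0.94 (SE 0.04) and Cdk5r1, the activator of Cdk5, -0.81 (SE 0.06). Of 8 tested repressors and upstream signals named for the subunit switch none rose and 7 fell (median -0.48): Ezh2, a histone methyltransferase, had -3.00 (SE 0.10) and Ephb2, an ephrin receptor that binds the NMDA receptor, -1.94 (SE 0.09), while Rest itself had -0.40 (SE 0.10). By step, 7 of the 8 fell from P2 to P9, where 31.8% of all genes were lower at P9, and 2 from P9 to P23, where 32.1% were lower at P23. The counts of most lists lie beside a background of 41.1% of genes higher and 39.9% lower, and no list was tested as a set.

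**Figure D5:**
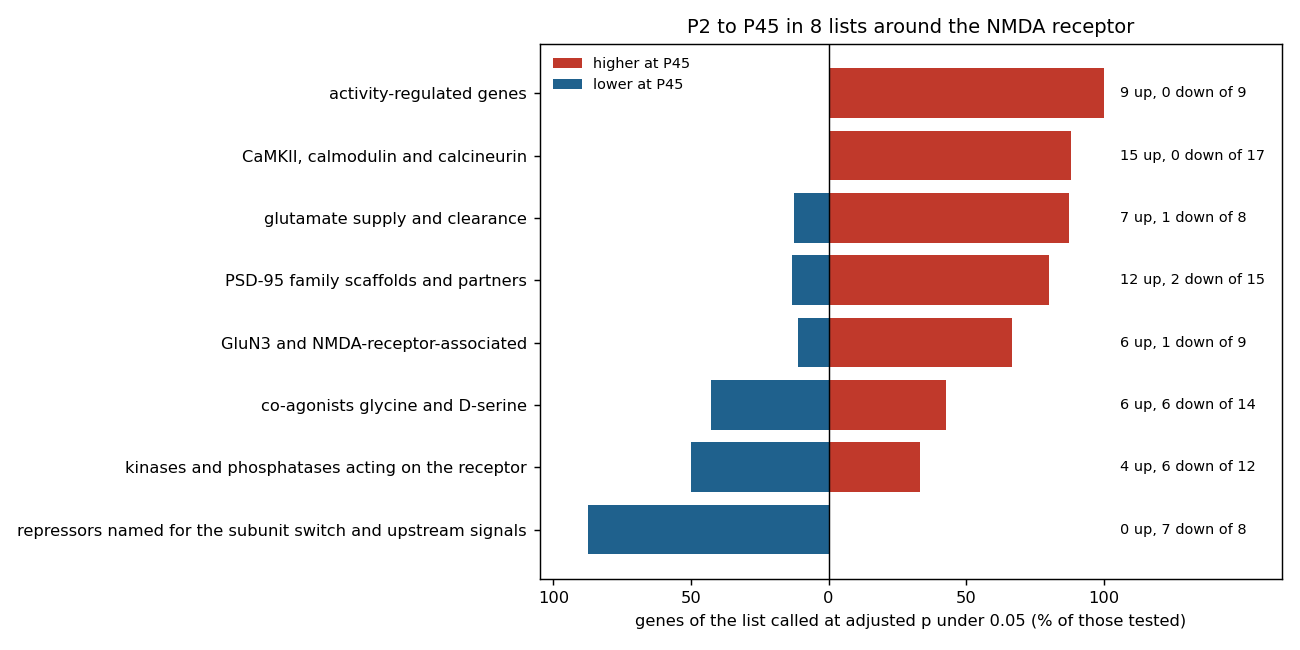
Share of the tested genes of 8 lists that were called higher (right, red) or lower (left, blue) at P45 than at P2, in percent of the genes tested (horizontal axis), with the counts printed beside each bar. All 9 activity-regulated genes were higher, and 7 of 8 repressors and upstream signals were lower.

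Between layers the lists split within themselves. Of their 91 distinct genes tested 26.4% were higher in LII and 28.6% lower, beside 23.5% and 30.5% of all genes, which is near the background. Of the CaMKII, calmodulin and calcineurin genes 4 were higher in LII and 9 lower (median LFC -0.14, against -0.05 over all genes), with Camk2d at 0.43 and Camk2n2 at 0.30, and Actn2, an actin linker of the receptor, at -0.51 and Nrgn, a calmodulin binder, at -0.45. Of the scaffold genes 2 were higher and 4 lower: Homer3 at 0.67 and Dlgap3 at 0.22, Dlg2 at -0.41 and Dlg3 at -0.22. Of the co-agonist genes 7 were higher and 2 lower (median 0.15), with Slc1a5 at 2.43 and Gldc, of the glycine cleavage system, at 0.52, against Slc6a9, a glycine transporter, at -0.41 and Srr, the enzyme that makes D-serine, at -0.26. Of the glutamate genes 4 were higher and 2 lower: Glul at 0.59 and Slc1a3 at 0.58, both typical of astrocytes, against Slc1a1 at -0.41. Among the kinases and phosphatases 3 were higher and 5 lower, with Prkca at 0.52 and Yes1 at 0.23, Ptk2b at -0.27 and Dapk1 at -0.23. Of the repressors and upstream signals 4 were higher and 2 lower, with Wnt5a at 1.66 and Reln, itself a marker of LII, at 1.48, against Grm5 at -0.43 and Ephb2 at -0.41. Among the associated genes 2 were lower (Neto1 at -0.21 and Nsf at -0.15) and of the activity-regulated genes only Homer1, at -0.19.

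Between regions 11 of the 91 genes of the lists were higher in the MEC (12.1%) and 13 lower (14.3%), beside 8.81% and 6.48% of all genes. Neto1, an auxiliary subunit of kainate receptors that also binds the NMDA receptor, was higher in the MEC (LFC 0.60, SE 0.09, adjusted p = 1.7e-06) and Lin7a lower (-0.45). Ptk2b was lower in the MEC (-0.63), as were Nrgn (-0.50) and Nos1 (-0.49), while Ephb2 (0.51), Actn2 (0.39) and Prkca (0.30) were higher. Slc1a2 (0.37), Slc1a1 (0.31), Bdnf (0.30), Homer2 (0.26), Ptpn5 (0.20), Dlg1 (0.19) and Camk2g (0.14) were higher too, and Fosb (-0.86), Npas4 (-0.57), Dapk1 (-0.17) and Srr (-0.14) lower. By list, 1 associated gene was higher and 1 lower, 2 and 0 scaffolds, 2 and 6 CaMKII, calmodulin and calcineurin genes, 2 and 2 kinases and phosphatases, 0 and 1 co-agonist genes, 2 and 0 glutamate genes, 1 and 0 repressors and upstream signals, and 1 and 3 activity-regulated genes.

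Last, the pattern of each subunit over the 16 group means was compared with that of 10193 genes with a mean of at least 5 CPM, by Pearson r as a description, and the points share libraries and depth. The genes most like Grin1 were Pde4a, Nomo1 and Scn8a (each 0.99), those most like Grin2a were Camta2, Mical2 and Lpcat4 (each 0.99), and those most like Grin2c were Lynx1, Fam163a and Hsd11b1 (each 0.99). For Grin2d they were Kcnk10, Sfpq and Stk32b (each 0.99), and for Grin3a Gipr (0.98), Mmp16 (0.97) and Sms (0.97). Grin2b had the lowest values of this kind, with Ylpm1 at 0.90, Phlpp2 at 0.89 and Eif4g3 at 0.89. Among the subunits themselves Grin1 and Grin2a had r = 0.98 and Grin2d and Grin3a r = 0.86, while Grin2a and Grin2d had r = -0.92 and Grin2b had -0.10 to 0.31 with the other 5.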

How the data were processed

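RNA was measured in 64 samples by ribosome-depleted, stranded total RNA sequencing (paired reads). Per the submitters' processing notes and methods, the authors used bcl2fastq 1.8.4, trimming by Trimmomatic 0.33 and alignment to rn6 by STAR 2.4.0, and counted pairs on RefSeq exons with featureCounts of Subread 1.4.6-p1, by strand. The deposited values are these raw counts per gene and sample, without normalization, so the choice of annotation and of alignments is fixed in them. Samples were grouped by the region, layer and age in their labels, and the study calls the samples of a group biological replicates.

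Counts were scaled by TMM and tested with edgeR 4.0.16 in R 4.3.3 (filterByExpr, robust quasi-likelihood test), with 1 mean for each of 16 groups in all 64 samples, and p-values were adjusted by Benjamini-Hochberg over 12521 genes. Depth was 3894334 to 11439143 counts per sample. No 2 of 100 replicate pairs were identical, and the lowest chi-square per degree of freedom was 3.08. The fit was also run on simulated counts, drawn independently with the same dispersion for every gene. These held no shared replicate numbers, length slope or tissue of other brain parts, and the outcome is not given here. All 6 subunits are named, then of each list the genes with the largest absolute LFC among those called (up to 2 per direction), and the 3 genes most like each subunit, except that a few genes are not reported here. Members and lists were chosen with earlier results of these data known. Alternatives were RLE factors, scaling to pan-neuronal markers, no filter, a replicate block, 1 region at a time, counts summed over samples with the same number, DESeq2 1.42.0, limma 3.58.1 with voom, and leaving out each replicate number. Those on libraries that stood apart and on gene length were added after seeing the data.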

Additional observations from a re-analysis of the deposited data

Results flagged for a closer look

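Within groups of 4 or 5 samples, 84 sets of values (6 genes and the log2 ratio of Grin2b to Grin2a) were searched for a sample far from the others by Dixon's criterion, which chance meets in about 1 group in 20, and 9 were found. Values are log2 CPM unless stated. Grin1 was high at 8.75 in MEC LDeep P2 replicate 4 (the other samples 7.43 to 7.81), the library with the steepest length slope, in which all 6 subunits lay above the group mean. Grin1 was also high at 8.31 in LEC LDeep P9 replicate 3 (others 8.05 to 8.09) and at 9.01 in MEC LII P45 replicate 4 (others 8.72 to 8.77).

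Grin2a was high at 5.66 in LEC LII P9 replicate 4 (others 5.12 to 5.18), where Grin2b was high as well at 8.72 (others 7.65 to 7.79), and at 6.19 in LEC LDeep P9 replicate 3 (others 5.23 to 5.33). Grin2d was low at 4.00 in LEC LII P2 replicate 1 (others 4.85 to 4.92) and high at 4.86 in LEC LDeep P45 replicate 4 (others 2.38 to 2.58), the other library with a steep length slope. The log2 ratio of Grin2b to Grin2a was low at 2.58 in MEC LII P2 replicate 3 (others 3.72 to 4.14), the library with 1080 CPM of dopamine neuron markers. The cause of these values was not tested.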

How the results depend on the processing

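Of 7698 values of the 6 subunits over all contrasts and alternatives, 7534 kept their direction and their side of the threshold or stayed uncalled, 50 called values lost the threshold, 112 passed it and 2 turned, while 265 uncalled values had the other sign. From P2 to P45 Grin1, Grin2a, Grin2c, Grin2d and Grin3a held their calls in each alternative run, as did Grin3a between layers, and the mean log2 ratio of Grin2b to Grin2a moved by less than its spread. Where the cause of a change is not given by the alternative itself, it was not tested.

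Scaling to pan-neuronal markers shifted the median LFC of all genes by 0.37 from P2 to P45, by 0.39 from P9 to P23 and by 0.17 between layers, so LFCs there are relative to that shift, and by -0.17 and -0.13 in the interactions of region with age and with layer. The share of calls that were higher went from 50.7% to 71.5% (P2 to P45), 50.3% to 83.4% (P9 to P23), 51.7% to 17.2% (P23 to P45), 43.5% to 86.5% (LII against LDeep), 57.6% to 26.2% (MEC against LEC), 39.7% to 6.87% (P2 to P45 between regions), 75.5% to 21.9% (layers between regions) and 60.0% to 77.3% (P2 to P45 between layers). DESeq2 gave 65.2% for layers between regions and voom 52.6% for P2 to P45 between regions. Under this scaling Grin2b had an LFC of 0.71 from P9 to P23 and turned from -0.01 to 0.34 from P2 to P45 (both called), the latter about the size of the shift itself, Grin1 had -0.016 between layers, and Grin2b (-0.99), Grin2d (-1.16) and Grin3a (-0.88) were called for the change from P2 to P45 in the MEC minus that in the LEC, with 1427 genes called there.

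RLE factors called Grin3a from P2 to P9 (-0.30, adjusted p = 0.0498), as did DESeq2 (-0.30), which also called Grin2a between regions (0.33). Voom with quantile normalization called Grin2b from P2 to P9 (-0.32) and Grin2a between regions (0.33) and lost Grin1 between layers (-0.059). Without the 6 libraries that stood apart Grin2c lost its layer call (0.34; -0.13 in the MEC at P2), and Grin2d between layers (-0.43) and Grin3a between regions (-0.30) gained one. Without the 2 libraries of steep length slope Grin2b was called from P9 to P23 (0.32), Grin2a between regions (0.36), and Grin1 not between layers (-0.12), with 386 genes called for P2 to P45 between regions and 1320 between layers. With the slope as covariate Grin2b was called from P2 to P9 (-0.30), from P9 to P23 (0.37), between layers (-0.15) and for P2 to P45 between regions (-0.64), Grin3a from P2 to P9 (-0.31) and Grin2a between regions (0.34), with genes called 949 from P23 to P45, 1766 for P2 to P45 between regions, 591 for layers between regions and 1266 for P2 to P45 between layers. Genes called for P2 to P45 between layers were 226 in a fit of MEC samples and 368 in a fit of LEC samples. Summed counts gave 65 genes called from P23 to P45.

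The next ranges are over 17 fits that each left out 1 replicate number at 1 age or, added after seeing the data, only the library MEC LII P2 replicate 1. Grin3a from P2 to P9 ranged from -0.41 to -0.17 and Grin2b from -0.39 to -0.18 (called without P2 replicate 3 or P45 replicate 4), Grin1 between layers from -0.22 to -0.15 and Grin2a between regions from 0.22 to 0.41. Grin3a from P2 to P9 was called without P2 replicate 1 or 2, P9 replicate 1 or 4, P23 replicate 2 or 3, or P45 replicate 4. Genes called ranged from 282 to 636 from P23 to P45, 257 to 820 for P2 to P45 between regions, 79 to 217 for layers between regions and 423 to 1677 for P2 to P45 between layers.

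With the replicate block, Grin2a was called between regions (0.33) and 287 genes called for layers between regions, and with the block as a correlation in voom (0.12) 248 genes called from P23 to P45. The same-numbered samples of an age had mean correlations of their deviations of 0.13 to 0.14 over 32 pairs of each kind, against -0.05 to -0.04 for different numbers. Of each 32 pairs 17 to 20 were over 0.1. In P2 replicate 3, P9 replicate 4, P23 replicate 3 and P45 replicate 4 all 6 pairs were over 0.1 (lowest 0.21, 0.15, 0.12 and 0.17), and in the other 12 numbers at least 1 pair was not. Whether the numbers mark shared animals in these samples is not settled by this. The smallest groups held 3 samples, and at P2 Grin2c had as few as 1 count, which limits its contrasts there.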

Other observations

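The ratio of Grin2b to Grin2a took its extreme values in samples with the same replicate number. At P2 the lowest ratio belonged to replicate 3 in all 4 region and layer groups, with 5.98 in MEC LII, 7.67 in MEC LDeep, 8.01 in LEC LII and 5.70 in LEC LDeep, where the next lowest samples stood at 13.2, 9.67, 9.28 and 10.1. At P9 the highest ratio belonged to replicate 4 in all 4 groups (6.23, 5.61, 7.55 and 7.75), and at P23 the lowest to replicate 2 (1.04, 1.81, 1.93 and 1.87). The dopamine neuron markers Th, Slc6a3, Slc18a2 and Pitx3 were also high in replicate 3 of P2, at a sum of 1080 CPM in MEC LII, 103 in LEC LDeep, 49.2 in MEC LDeep and 39.6 in LEC LII, against a median of 2.68 CPM over the libraries that did not stand apart. Of these samples only that of MEC LII was among the 6 libraries left out above, so values without the 6 still include the others. The labels do not say whether these samples share an animal.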
